A study of Mus musculus with 6 samples.

Results

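The *Hox* genes of the a to d clusters were read in 6 pools of whole mouse embryos as all probes whose annotated gene symbol was Hox, a cluster letter and a number. This gave 57 probes for 38 genes, out of 45281 probes and 19057 genes with a probe under a single symbol. The *Hoxa* cluster (chromosome 6) and the *Hoxb* cluster (chromosome 11) were each read by 10 genes, and the *Hoxc* cluster (chromosome 15) and the *Hoxd* cluster (chromosome 2) by 9 each. RNA came from 3 pools of Zic2 iso/iso embryos and 3 pools of wildtype embryos, collected between E8.0 and E8.5, when 0 to 4 somites had formed. Each pool held 8 stage-matched whole embryos and was hybridised to 1 Illumina Mouse WG6 v2 array. *Zic2* encodes a zinc finger transcription factor, and the *iso* allele is a chemically induced point mutation that creates a premature stop codon. Both genotypes came from intercrosses of Zic2 iso/+ parents on the C3H/HeH strain, embryos of both sexes were used, and wildtype embryos were littermates.

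*Hox* genes encode homeodomain transcription factors that give cells their position along the head to tail axis. In the mouse their order along each chromosome matches the order of their activation: genes with low paralogue numbers are switched on first, in the primitive streak, and come to be expressed far forward in the hindbrain, while genes with higher numbers follow later and stay further back. The embryo at the start of somite formation is in the middle of this sequence, so the spread of detected paralogues is related to axial stage. CDX factors, WNT, FGF and retinoic acid signals act upstream of the clusters, and HOX proteins bind DNA together with PBX and MEIS cofactors.

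The stretches just upstream of the start site are shown for *Hoxb1*, *Hoxd3* and *Hoxd10*, the 3 of the 7 *Hox* genes with an unadjusted p under 0.05 that had a RefSeq promoter window. Each is the 250 bases before the start on the plus strand of GRCm38.p6, at chr11:96365508-96365757 for *Hoxb1*, chr2:74711743-74711992 for *Hoxd3* and chr2:74691641-74691890 for *Hoxd10*. Capitals mark a match to the joint PBX-HOX motif TGATNNAT.
Hoxb1: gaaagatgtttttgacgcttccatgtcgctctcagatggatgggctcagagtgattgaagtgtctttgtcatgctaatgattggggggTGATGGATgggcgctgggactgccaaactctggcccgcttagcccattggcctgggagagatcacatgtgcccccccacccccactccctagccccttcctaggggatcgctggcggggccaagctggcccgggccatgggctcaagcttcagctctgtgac
Hoxd3: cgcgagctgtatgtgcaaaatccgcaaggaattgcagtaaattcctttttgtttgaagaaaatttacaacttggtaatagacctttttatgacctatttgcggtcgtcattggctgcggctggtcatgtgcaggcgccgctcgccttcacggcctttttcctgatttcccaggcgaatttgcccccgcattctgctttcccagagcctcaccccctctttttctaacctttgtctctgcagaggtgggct
Hoxd10: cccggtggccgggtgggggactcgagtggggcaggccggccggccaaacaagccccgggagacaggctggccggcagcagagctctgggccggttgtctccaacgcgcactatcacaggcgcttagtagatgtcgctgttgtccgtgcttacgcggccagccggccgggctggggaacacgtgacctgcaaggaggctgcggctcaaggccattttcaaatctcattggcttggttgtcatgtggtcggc
The single match, TGATGGAT in *Hoxb1*, began at position -162 from the start site. *Hoxb1* is known to maintain its own expression in rhombomere 4 through upstream elements that HOX and PBX proteins bind. Searched on both strands, TGATNNAT was present in 4 of the 24 windows of 22 *Hox* genes (16.7%; *Hoxa2*, *Hoxb1*, *Hoxb8* and *Hoxd11*), against 2524 of all 32851 windows (7.68%). The CDX motif TTTATTA was present in 1 of the 24 *Hox* windows (*Hoxd11*, 4.17%), against 4.52% of all windows. The ZIC motif CCTGCTG was present in 0 of the 24 *Hox* windows, against 8.44% of all windows.

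Values are given as log2 probe intensities after quantile normalisation, which gives every array the same distribution. Since probes differ in how well they bind, levels were compared between pools and not between genes. A gene was taken as above background when the mean of its brightest probe exceeded 7.47, the 95th percentile of 1606 probes of families that embryos of this age are not known to express (beta-defensins, keratin-associated proteins, and the receptors of the olfactory and vomeronasal organs). By this measure 40.7% of all probes were above background. Pools correlated at r of 0.993 to 0.995 over all probes, and 20 probes (0.0442%) passed an adjusted p of 0.05 in limma between genotypes. The third Zic2 iso/iso pool stood apart in heart genes, which deviated from the wildtype mean by -0.99 there. The other Zic2 iso/iso pools had -0.28 and -0.16, and wildtype pools -0.06 to 0.11. Primitive blood genes deviated by 0.59, -0.55 and -1.41 in Zic2 iso/iso pools, each outside the -0.16 to 0.16 of wildtype pools. One *Zic2* probe had 7.64, 7.57 and 8.01 in Zic2 iso/iso pools and 8.27, 8.06 and 8.00 in wildtype pools. The difference was -0.37 (95% confidence interval -0.60 to -0.13, unadjusted p = 0.0052 and adjusted p = 0.61, limma), with overlapping pools. The other *Zic2* probe, near background, differed by 0.12 (adjusted p = 0.92). As the *iso* transcript carries a point mutation, its level is no check of the genotype.

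The *Hox* genes above background at 0 to 4 somites numbered 24 of 38, and 20 of these were above it in all 6 pools. A smaller share of genes was detected at higher paralogue numbers. Since probes differ in how well they bind, a gene counted below background may still be expressed, and these shares depend on the probes too. Of anterior genes (paralogues 1 to 4), 9 of 11 were above background, missing *Hoxd1* and *Hoxc4*. Of central genes (paralogues 5 to 8), 8 of 11 were above it, missing *Hoxa6*, *Hoxb8* and *Hoxc5*. Of posterior genes (paralogues 9 to 13), 7 of 16 were above it: *Hoxa9*, *Hoxa13*, *Hoxc9*, *Hoxc10*, *Hoxc13*, *Hoxd9* and *Hoxd10*. None of the 5 genes of paralogues 11 and 12 was above background. By cluster, 7 of 10 *Hoxa*, 7 of 10 *Hoxb*, 5 of 9 *Hoxc* and 5 of 9 *Hoxd* genes were above it. In whole embryos, fewer cells expressing a gene and less RNA per cell cannot be told apart.

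**Figure D1:**
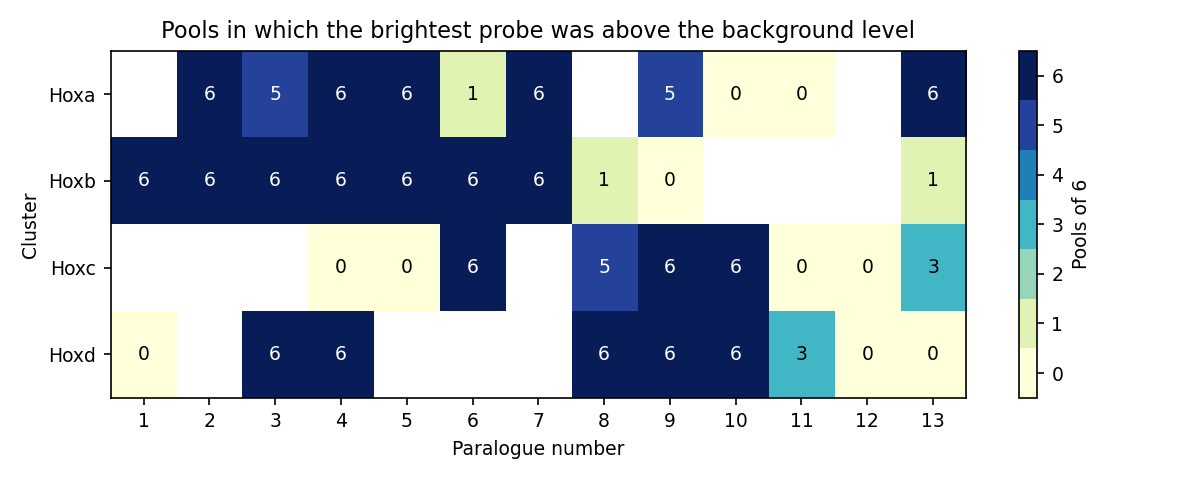
Number of pools, of 6, in which the brightest probe of each *Hox* gene was above the background level of 7.47 log2 units, by cluster (rows) and paralogue number (columns); white cells held no gene in this set. *Hoxb1* to *Hoxb7* were above it in all 6 pools, while all 5 genes of paralogues 11 and 12 had a mean below it.

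No gene was above background in all 3 pools of one genotype and in 0 of the other. Several genes lay close to the level: *Hoxc13* was above it in 2 Zic2 iso/iso pools and 1 wildtype pool, as was *Hoxd11*, whose mean fell just short at 7.46. *Hoxa13*, known in limb tips and hindgut, had 3 probes, of which only the brightest was above background (mean 8.25). The others averaged 7.24 and 7.35, so the detection of *Hoxa13* rests on 1 probe. Of the 13 genes with several probes, 6 had at least 2 above background, 3 had exactly 1 (*Hoxa3*, *Hoxa13* and *Hoxc10*) and 4 had none.

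No *Hox* probe passed an adjusted p of 0.05 between genotypes in limma (0 of 57), against the 0.0442% of all probes above. At an unadjusted p under 0.05, 9 of 57 *Hox* probes were counted (15.8%), against 6.02% of all probes. Among probes above background the count was 8 of 30 (26.7%), against 10.7%. Higher in Zic2 iso/iso were 5 probes (8.77%), against 2.94% of all probes, and lower were 4 (7.02%), against 3.08%. The pools of the genotypes did not overlap for 7 *Hox* probes. In 2 of them (3.51%) every Zic2 iso/iso pool lay above every wildtype pool, against 5.18% of all probes, and in 5 (8.77%) every Zic2 iso/iso pool lay below, against 5.46%. Of those 5, 3 were probes below background. The *Hox* shares at the unadjusted threshold were thus above the background shares, but the probes are few and neighbouring genes of a cluster are not independent. The 9 probes also include 2 each of *Hoxb1* and *Hoxc10*, so they stand for 7 genes.

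Across all 38 genes, the difference (Zic2 iso/iso minus wildtype, on the log2 scale) ran from -0.34 (*Hoxd10*) to 0.23 (*Hoxb2*). The median was -0.0039, with 19 genes higher and 19 lower in value, beside a median of 0.00026 over all probes. The anterior genes had a median of 0.037 (8 higher, 3 lower), the central genes -0.014 (5 higher, 6 lower) and the posterior genes -0.024 (6 higher, 10 lower). By cluster the medians were -0.024 for *Hoxa*, 0.039 for *Hoxb*, 0.0031 for *Hoxc* and -0.010 for *Hoxd*. Among the 24 genes above background, the difference was lower at higher paralogue numbers (Spearman's rho -0.48, Pearson's r -0.51). These points come from the same 6 arrays and neighbours share regulation, so the correlation is a description with no test. It was -0.37 (rho) over all 38 genes and -0.38 over the 19 detected genes left without paralogues 9 and 10. Within clusters rho was -0.25 for *Hoxa* and -0.50 for *Hoxb* (7 genes each), and -0.10 for *Hoxc* and -0.70 for *Hoxd* (5 genes each).

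**Figure D2:**
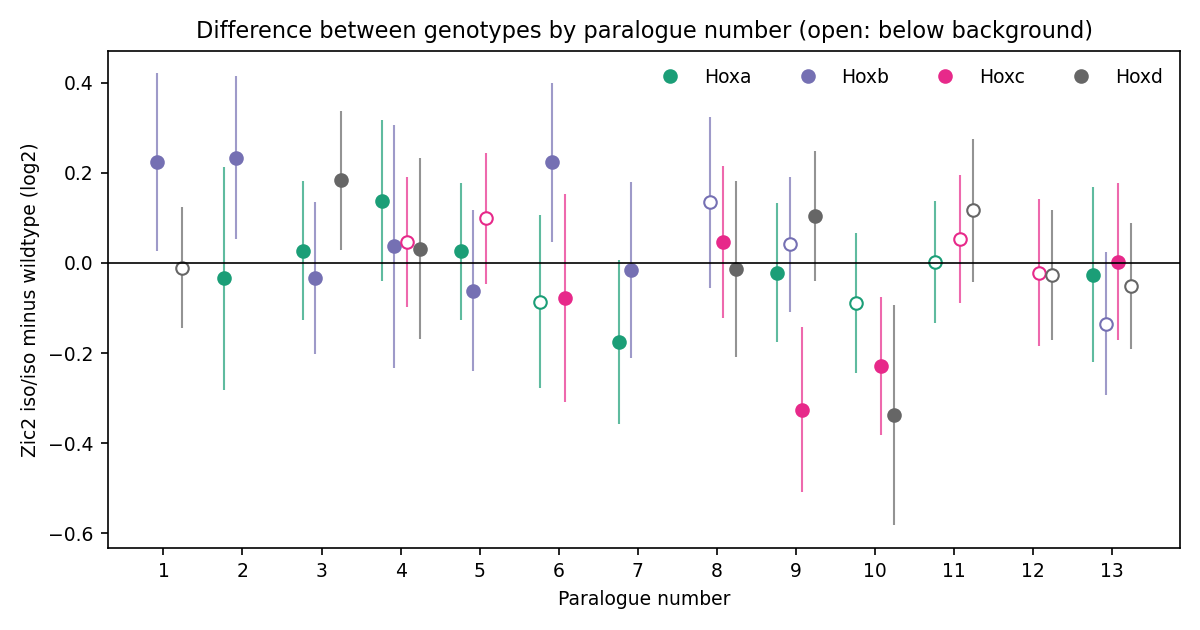
Zic2 iso/iso minus wildtype on the log2 scale (vertical axis) against paralogue number (horizontal axis) for 38 *Hox* genes, coloured by cluster; bars are 95% confidence intervals from limma and open circles are genes below background. *Hoxb1* and *Hoxb2* lie at 0.22 and 0.23, and *Hoxc9*, *Hoxc10* and *Hoxd10* at -0.33, -0.23 and -0.34.

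Anterior genes are first in the sequence of activation. *Hoxb1*, which gives rhombomere 4 its identity, had 10.10, 10.36 and 10.40 in Zic2 iso/iso pools and 10.19, 10.07 and 9.94 in wildtype pools. Only the first Zic2 iso/iso pool fell within the wildtype range. The difference was 0.22 (SE 0.09, 95% confidence interval 0.03 to 0.42, adjusted p = 0.79, limma, n = 3 pools each), which is 1.17-fold. A second *Hoxb1* probe gave 9.93, 10.09 and 10.31 in Zic2 iso/iso pools and 9.88, 9.92 and 9.67 in wildtype pools. There the pools did not overlap, by a narrow margin, and the difference was 0.29 (adjusted p = 0.72). *Hoxb2*, which acts in the hindbrain and in facial motor neurons, had 10.77, 10.63 and 10.54 in Zic2 iso/iso pools and 10.56, 10.30 and 10.37 in wildtype pools. The pools overlapped through the first wildtype pool, and the difference was 0.23 (SE 0.08, adjusted p = 0.74). *Hoxd3*, known for its part in the first neck vertebrae, had 8.02, 8.22 and 8.06 in Zic2 iso/iso pools and 7.90, 7.90 and 7.96 in wildtype pools. All Zic2 iso/iso pools were above all wildtype pools, with a difference of 0.18 (SE 0.07, adjusted p = 0.77). *Hoxd3* overlaps *Hoxd4* in the annotation, and which transcripts the probe reads was not tested.

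The other 6 detected anterior genes differed by -0.03 to 0.14. *Hoxa4* had 7.86, 7.66 and 7.53 in Zic2 iso/iso pools and 7.58, 7.50 and 7.56 in wildtype pools, a difference of 0.14 (adjusted p = 0.90). *Hoxa2*, which sets the identity of the second pharyngeal arch, had 8.97, 9.25 and 9.26 in Zic2 iso/iso pools and 9.44, 8.95 and 9.19 in wildtype pools. The wildtype pools spanned the whole range of *Hoxa2*. *Hoxa3*, needed for the thymus and parathyroid, had 7.55, 7.64 and 7.58 in Zic2 iso/iso pools and 7.47, 7.67 and 7.55 in wildtype pools, close to background. *Hoxb3* had 7.94, 7.88 and 7.86 in Zic2 iso/iso pools and 8.01, 8.00 and 7.76 in wildtype pools. *Hoxa3* overlaps *Hoxa4*, *Hoxa5* and *Hoxa6* in the annotation, and *Hoxb3* overlaps *Hoxb4*. *Hoxb4*, expressed up to the rear of the hindbrain, had 8.87, 9.19 and 8.83 in Zic2 iso/iso pools and 8.66, 8.93 and 9.19 in wildtype pools. *Hoxd4* had 8.82, 8.94 and 9.12 in Zic2 iso/iso pools and 8.94, 8.77 and 9.08 in wildtype pools. For all 6 of these genes the pools of the genotypes overlapped.

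Central genes pattern the neck and thorax. *Hoxb6* had 8.95, 8.98 and 9.06 in Zic2 iso/iso pools and 8.67, 8.95 and 8.70 in wildtype pools. The second wildtype pool reached the lowest Zic2 iso/iso pool, and the difference was 0.22 (SE 0.08, adjusted p = 0.74). *Hoxa7* had 9.62, 9.50 and 9.79 in Zic2 iso/iso pools and 9.71, 9.83 and 9.90 in wildtype pools, a difference of -0.18 (SE 0.08, adjusted p = 0.85). The third Zic2 iso/iso pool lay within the wildtype range of *Hoxa7*.

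The remaining 6 detected central genes lay between -0.08 and 0.05. *Hoxa5*, needed for lung development, had 10.35, 10.43 and 10.38 in Zic2 iso/iso pools and 10.42, 10.25 and 10.43 in wildtype pools. *Hoxb5* had 9.80, 10.02 and 9.996 in Zic2 iso/iso pools and 9.86, 10.11 and 10.03 in wildtype pools. In both genes the ranges lay over each other. *Hoxb7* had 10.08, 10.13 and 10.15 in Zic2 iso/iso pools and 9.96, 10.36 and 10.09 in wildtype pools. *Hoxc6* had 10.29, 10.08 and 10.03 in Zic2 iso/iso pools and 10.07, 10.09 and 10.47 in wildtype pools. The 95% interval of the difference was -0.21 to 0.18 for *Hoxb7* and -0.31 to 0.15 for *Hoxc6*. *Hoxc8*, which acts in the thoracic skeleton and motor neurons, had 7.49, 7.71 and 7.57 in Zic2 iso/iso pools and 7.43, 7.57 and 7.62 in wildtype pools. *Hoxd8* had 7.94, 8.13 and 8.16 in Zic2 iso/iso pools and 8.07, 7.94 and 8.26 in wildtype pools. These pools overlapped too.

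Posterior genes are the last to be activated and pattern the lower thorax, loins and tail. *Hoxc9*, which specifies thoracic motor neurons, had 8.91, 9.003 and 8.96 in Zic2 iso/iso pools and 9.16, 9.20 and 9.48 in wildtype pools. Every Zic2 iso/iso pool was below every wildtype pool. The difference was -0.33 (SE 0.08, 95% confidence interval -0.51 to -0.14, unadjusted p = 0.0022 and adjusted p = 0.47, limma, n = 3 each), which is 0.80-fold. *Hoxc10*, which acts at lumbar levels, had 7.53, 7.48 and 7.69 in Zic2 iso/iso pools and 7.78, 7.80 and 7.80 in wildtype pools. Again no pools overlapped, and the difference was -0.23 (SE 0.07, adjusted p = 0.66). A second *Hoxc10* probe, below background, differed by -0.16 (adjusted p = 0.82), also with no overlap.

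*Hoxd10*, another lumbar gene, had 7.64, 7.71 and 7.84 in Zic2 iso/iso pools and 7.80, 8.35 and 8.05 in wildtype pools. The first wildtype pool, the lowest of its genotype, lay below the third Zic2 iso/iso pool only, so the genotypes overlapped. The difference was -0.34 (SE 0.11, adjusted p = 0.70). *Hoxd10* overlaps *Hoxd11* in the annotation. *Tbx4*, a marker of the allantois and later of the hindlimb, had 9.11, 9.47 and 8.85 in Zic2 iso/iso pools and 8.41, 9.70 and 9.67 in wildtype pools, and so was also low in the first wildtype pool. The 3 detected genes of the allantois list deviated from the wildtype mean by -0.07, 0.07 and -0.32 in Zic2 iso/iso pools and by -0.16, 0.09 and 0.08 in wildtype pools. In the first wildtype pool only *Tbx4* of these was low. *Vcam1* (8.11, 7.79 and 7.96 in wildtype pools) and *Hand1* (7.89, 7.68 and 7.51) were highest there. Without the first wildtype pool the *Hoxd10* difference was -0.47 (adjusted p = 0.16, limma), and without the second, the highest, it was -0.20 (adjusted p = 0.99). *Prl8a2*, a decidual gene, had 7.96, 8.64 and 8.39 in Zic2 iso/iso pools and 7.92, 9.20 and 9.27 in wildtype pools, and was low in the same wildtype pool. Of 5 trophoblast and decidua genes with a probe, 4 were above background, and these deviated by -0.31, -0.13 and -0.11 in Zic2 iso/iso pools and by -0.22, 0.17 and 0.05 in wildtype pools. *Prl2c2* of this list went the other way, with 11.47, 10.86 and 10.92 in wildtype pools. *Dcn* (8.58, 8.72 and 8.66) and *Des* (9.26, 9.98 and 9.47) were lowest in the first wildtype pool. The trophoblast marker *Tpbpa* was below background. The part of allantoic or decidual tissue in the *Hoxd10* values was not tested.

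**Figure D3:**
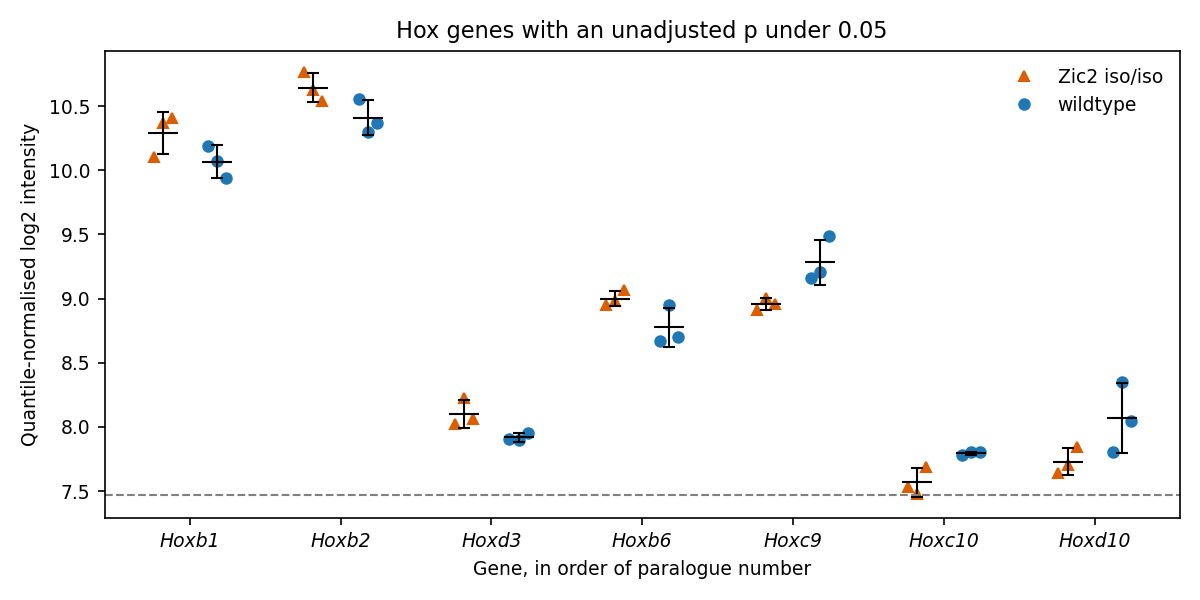
Quantile-normalised log2 intensity (vertical axis) in each pool for the 7 *Hox* genes with an unadjusted p under 0.05, in order of paralogue number, with Zic2 iso/iso pools (triangles) left of wildtype pools (circles); bars are the mean and SD and the background level is dashed. Pools do not overlap for *Hoxd3*, *Hoxc9* and *Hoxc10*, and *Hoxd10* has its widest spread in wildtype pools (7.80 to 8.35).

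Not all posterior genes lay below zero. *Hoxd9* had 8.86, 8.99 and 8.96 in Zic2 iso/iso pools and 8.89, 8.81 and 8.79 in wildtype pools, and its 2 probes differed by 0.10 and 0.11 (adjusted p = 0.92 and 0.93). *Hoxa13* had 8.24, 8.10 and 8.38 in Zic2 iso/iso pools and 8.26, 8.42 and 8.12 in wildtype pools. The ranges of *Hoxa13* lay over each other. *Hoxa9* had 7.58, 7.48 and 7.48 in Zic2 iso/iso pools and 7.42, 7.58 and 7.61 in wildtype pools. *Hoxc13*, known in hair and nails, had 7.54, 7.42 and 7.63 in Zic2 iso/iso pools and 7.44, 7.67 and 7.46 in wildtype pools. *Hoxa9* and *Hoxc13* were both near background in every pool, with overlapping genotypes. The 14 genes below background differed by -0.14 (*Hoxb13*) to 0.13 (*Hoxb8*), and none had an unadjusted p under 0.05.

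The same pattern was read pool by pool, as the mean deviation of the detected genes of a class from their wildtype means. Anterior genes (9) deviated by 0.05, 0.14 and 0.08 in Zic2 iso/iso pools and by 0.03, -0.04 and 0.01 in wildtype pools. Central genes (8) deviated by -0.05, 0.01 and 0.03 in Zic2 iso/iso pools and by -0.09, 0.02 and 0.07 in wildtype pools. Posterior genes (7) deviated by -0.14, -0.16 and -0.05 in Zic2 iso/iso pools and by -0.08, 0.08 and 0.00 in wildtype pools. The anterior deviations did not overlap between genotypes, and the central and posterior ones did. The anterior minus posterior difference was 0.19, 0.30 and 0.13 in Zic2 iso/iso pools and 0.11, -0.12 and 0.01 in wildtype pools. Its mean in Zic2 iso/iso was 0.21, with the lowest Zic2 iso/iso pool only just above the highest wildtype pool. Without the third Zic2 iso/iso pool, which stood apart in heart genes, it was 0.25. Leaving out the other pools 1 at a time, it ran from 0.15 (second wildtype pool) to 0.26 (first wildtype pool). Without the third Zic2 iso/iso pool, *Hoxc9*, *Hoxc10* and *Hoxd10* differed by -0.32, -0.29 and -0.39. In that setting *Hoxb1*, *Hoxb2*, *Hoxb6* and *Hoxd3* differed by 0.17, 0.29, 0.19 and 0.20. No p is given for these scores, since the genes were chosen with earlier results of the data known.

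**Figure D4:**
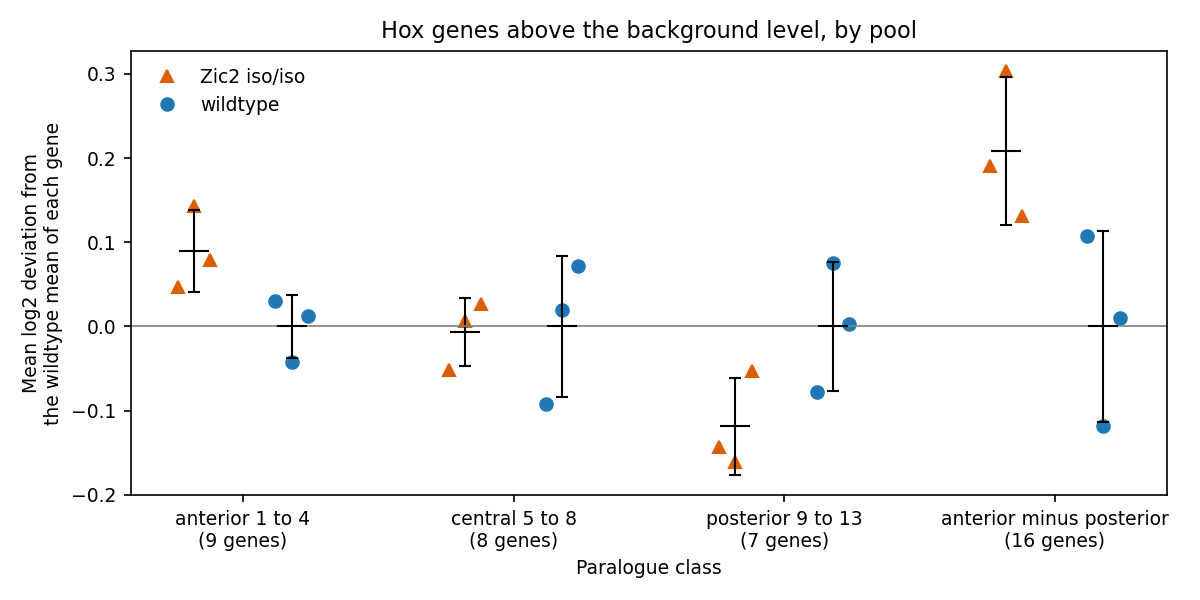
Mean log2 deviation of the detected *Hox* genes from the wildtype mean of each gene (vertical axis), by paralogue class, with Zic2 iso/iso pools (triangles) left of wildtype pools (circles); bars are the mean and SD over pools. Anterior genes lie at 0.05 to 0.14 in Zic2 iso/iso pools and at -0.04 to 0.03 in wildtype pools, while the central genes overlap.

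Regulators upstream of the clusters had no member past the adjusted threshold. Of 18 with a probe, 15 were above background, 3 had an unadjusted p under 0.05 and were higher in Zic2 iso/iso (against 2.94% of all probes), 0 were lower (against 3.08%), and the median difference was 0.07. Among all probes above background, 10.7% had an unadjusted p under 0.05 in either direction. *Cdx2*, which drives central and posterior *Hox* genes in the tail of the embryo, had 12.52, 12.40 and 12.66 in Zic2 iso/iso pools and 12.34, 12.20 and 12.07 in wildtype pools. No pools overlapped, and the difference was 0.32 (SE 0.09, adjusted p = 0.50). *Cdx1* and *Cdx4*, its relatives, differed by 0.09 and 0.10 (adjusted p = 0.96 and 0.93). The other members under 0.05 were *Fgf8*, a growth factor of the primitive streak, and *Rarb*, a retinoic acid receptor that is itself induced by retinoic acid, each at 0.18 (adjusted p = 0.79 and 0.82). *Aldh1a2*, which makes retinoic acid, differed by 0.02, and *Cyp26a1*, which breaks it down, by 0.13. The intervals were -0.16 to 0.20 for *Aldh1a2* and -0.04 to 0.30 for *Cyp26a1*.

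Of the PBX and MEIS family cofactors, 7 of 8 with a probe were above background, and 1 had an unadjusted p under 0.05, against 6.02% of all probes and 10.7% of those above background. This was *Pbx2*, at 0.17 (adjusted p = 0.82), and the median of the list was 0.02. Of 12 neighbours and other transcripts of the clusters with a probe, 6 were above background. *Cbx5* had the largest difference among these, 0.23 (adjusted p = 0.88), and *Snx10*, beyond the *Hoxa* cluster, was the only one of the 12 with an unadjusted p under 0.05 (against 6.02% of all probes), at -0.22 (adjusted p = 0.72). *Evx1*, a homeobox gene at the posterior end of the *Hoxa* cluster, differed by 0.11, while *Evx2* and the noncoding *Hottip* were below background. Of 4 hindbrain segmentation genes with a probe, 3 were above background. *Egr2*, which defines rhombomeres 3 and 5 and activates *Hoxa2* and *Hoxb2* there, had 7.99, 8.02 and 7.83 in Zic2 iso/iso pools and 8.49, 8.22 and 8.35 in wildtype pools. Every Zic2 iso/iso pool was lower, and the difference was -0.41 (SE 0.08, adjusted p = 0.19). The other detected members of this list, *Epha4* and *Fgf3*, differed by -0.08 and 0.11 (adjusted p = 0.95 and 0.93, limma), with overlapping pools.

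Markers of other tissues were read beside the *Hox* genes. *Tcf15*, which marks forming somites, had 9.43, 9.89 and 9.80 in Zic2 iso/iso pools and 10.40, 10.24 and 10.05 in wildtype pools (difference -0.52, adjusted p = 0.27). *Meox1*, another somite gene, had 9.76, 10.04 and 10.03 in Zic2 iso/iso pools and 10.41, 10.22 and 10.03 in wildtype pools (-0.28, adjusted p = 0.74). Of 8 somite and presomitic genes with a probe, 6 were above background, and these deviated by -0.24, -0.16 and -0.13 in Zic2 iso/iso pools and by 0.12, 0.02 and -0.14 in wildtype pools. *Tcf15* and *Meox1* had the largest differences of the list. The other detected members were *Tbx6* (-0.13), *Dll1* (-0.13), *Ripply2* (-0.01) and *Uncx* (0.02), all with overlapping pools. Of 4 heart genes with a probe, 4 were above background and 3 had an unadjusted p under 0.05, all lower in Zic2 iso/iso (against 3.08% of all probes). Among all probes above background, the share in either direction was 10.7%. The heart genes were led by *Actc1* (-0.66, adjusted p = 0.75) and *Myl4* (-0.61, adjusted p = 0.61). Of 4 neural plate genes, *Sox2* and *Sox3* were above background, with a median over the list of 0.02, and *Sox1* and *Pax6* were below it. *Apob*, of the yolk sac endoderm, differed by 0.50 (adjusted p = 0.15), the largest difference in its list. The 6 genes of that list were all above background with a median of 0.11. *Afp*, *Ttr*, *Rbp4* and *Apoa1* differed by 0.30, 0.15, 0.07 and 0.03, and *Apoa4* by -0.10, all with overlapping pools. The part of stage and of tissue makeup in the *Hox* values was not tested.

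**Figure D5:**
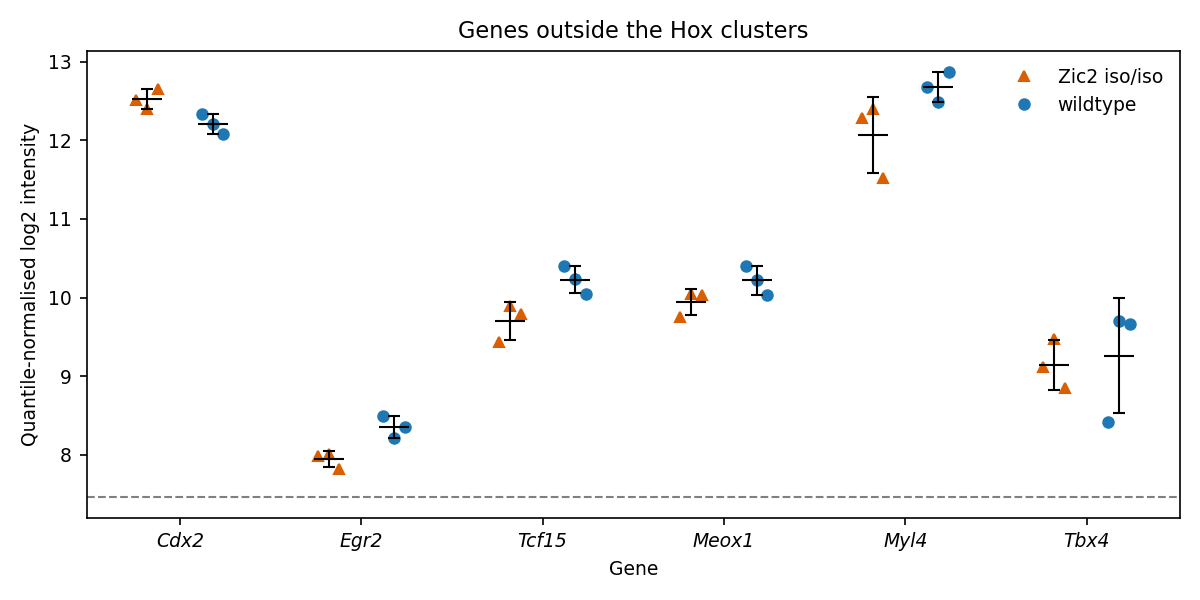
Quantile-normalised log2 intensity (vertical axis) in each pool for *Cdx2*, *Egr2*, *Tcf15*, *Meox1*, *Myl4* and *Tbx4*, with Zic2 iso/iso pools (triangles) left of wildtype pools (circles); bars are the mean and SD, and background is dashed. *Cdx2* is higher in all 3 Zic2 iso/iso pools and *Egr2*, *Tcf15* and *Myl4* are lower in all 3, and *Tbx4* is lowest in the first wildtype pool (8.41).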

How the data were processed

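The authors deposited linear intensities of 45281 probes in 6 pools. The lowest intensity of a pool was 104 to 122, so background had not been subtracted, although the methods name variance stabilising normalisation. Genotypes and replicate numbers came from the labels. Here values below 1 were raised to 1, log2-transformed and quantile-normalised. Every probe was fitted by genotype with limma 3.58.1 (lmFit and eBayes, R 4.3.3), with Benjamini-Hochberg adjustment over all probes and a threshold of 0.05. Probes were named through the platform annotation, and the brightest probe stood for a gene. The fit was tested on simulated data. Pools were taken as independent samples, as the paper describes them as independent biological replicates. The labels do not say whether they were collected separately. An exact permutation test of 3 against 3 pools cannot give a p under 0.1. The number of arrays limits the precision. Same-numbered pools did not deviate together, so numbers were not used as pairs. Values per pool were given for each *Hox* gene above background. Of related lists, members past the threshold, the one with the largest difference above background, *Cdx1*, *Cdx2*, *Cdx4*, *Cyp26a1* and *Aldh1a2* were named, and others were named after their values were seen. The *Hox* genes and the lists were chosen with earlier results of these data known. Alternatives covered normalisation, background correction, filtering, the variance prior, array weights, a replicate block, averaged probes and leaving out each pool. Promoter windows are RefSeq's, and 22 of 38 genes had one.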

Additional observations from a re-analysis of the deposited data

How the results depend on the processing

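No *Hox* probe passed an adjusted p of 0.05 in any of 15 alternatives, nor at thresholds of 0.01 and 0.10, and the lowest adjusted p of a *Hox* gene in any of them was 0.16 (*Hoxd10*). All probes called numbered 4 with no normalisation between arrays, 11 with median centring, 31 with an intensity trend in the prior and 13 with averaged probes, against 20. The 7 *Hox* genes with an unadjusted p under 0.05 kept their direction in all 15, and the p stayed under 0.05 in 9 for *Hoxb1*, 11 for *Hoxb2*, 12 for *Hoxb6* and *Hoxd3*, 13 for *Hoxd10* and 14 for *Hoxc9* and *Hoxc10*. Of the other 31 genes, 19 changed sign in some alternative. The 7 were picked by their p in these same arrays, so their steadier direction is no separate support for a difference. The filter to probes above background, the intensity trend, the robust variance prior and the replicate block cannot change a difference (*Hoxc9* stayed at -0.33). With the replicate block 17 probes were called, and same-numbered pools correlated at -0.08, -0.01 and -0.07 in their deviations. The anterior minus posterior difference, recomputed under alternatives chosen after seeing the data, was 0.15 to 0.27, with the lowest value without the second wildtype pool, and rho was -0.62 to -0.32. Genes above background numbered 27 with the 90th percentile and 20 with the 99th.

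With no normalisation between arrays, where the median of all probes was 0.05, the median differences were 0.065 (all *Hox* genes), 0.13 (anterior), 0.068 (central), 0.028 (posterior), 0.050 (*Hoxa*), 0.10 (*Hoxb*) and 0.065 (*Hoxd*). With median centring they were 0.078 (anterior) and 0.00092 (*Hoxa*). Leaving out 1 pool at a time, they ran from -0.015 to 0.027 for all *Hox* genes, 0.035 to 0.11 for anterior, -0.025 to 0.057 for central and -0.048 to 0.0091 for posterior genes. By cluster they ran from -0.039 to 0.0047 for *Hoxa*, 0.0042 to 0.085 for *Hoxb* and -0.046 to 0.073 for *Hoxd*. The *Hoxc* median ran from -0.038 to 0.053. The medians of all, central, posterior, *Hoxa*, *Hoxc* and *Hoxd* genes thus have no settled sign. No interval was computed for these medians. With 3 arrays for each genotype, the differences of single *Hox* genes could not be told from the spread between pools after adjustment over all probes.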
